A study of Mus musculus with 13 samples.

Results

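Myelin genes and oligodendrocyte progenitor genes were followed through mouse medulloblastomas, a cerebellar tumour that can grow from granule neuron precursors, and through samples of the normal young hindbrain. The members were 9 genes of 18193 with a symbol on the array, taken by symbol. Of these, 4 are progenitor genes (Olig1, Olig2, Sox10 and Pdgfra) and 5 are myelin genes (Mbp, Mag, Mog, Mobp and Cnp). They were read by 26 probe sets, 8 for progenitor and 18 for myelin genes, of 45037 that are not controls.

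The samples were 6 primary medulloblastomas of Ptch1(+/-) mice, 3 samples of granule neuron precursor cells (GNPC) from wild-type mice at postnatal day 7, and 4 samples of dorsal brainstem (DBS) from wild-type embryos at E16.5. Each sample came from a different mouse and none was treated. Strain, sex, the age of the tumour mice and the purity of the GNPC preparation were not given in the sources used here. The Ctnnb1 tumours of the series were not analysed here. In these bulk samples, fewer cells of a type and less RNA per cell cannot be told apart.

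Oligodendrocytes wrap axons of the central nervous system in myelin. They arise from progenitors that divide in response to PDGF-A, a growth factor, through its receptor Pdgfra, and that carry the transcription factors Olig1, Olig2 and Sox10. As a progenitor leaves the cell cycle it stops making Pdgfra, passes through a committed precursor stage and switches on myelin genes, which in the rodent cerebellum happens in the days after birth. Olig1, Olig2 and Sox10 stay on in myelinating cells, so a progenitor gene and a myelin gene are not exclusive of each other.

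Values are MAS5 intensities, a brightness per probe set on a linear scale with every array scaled to the same trimmed mean, and array medians ran between 91.4 and 117.7. Differences are on the scale log2(intensity + 18), which understates the change of dim probe sets. A probe set was called when its difference was at least 2-fold with an adjusted p under 0.05, by limma with Benjamini-Hochberg adjustment over 25894 probe sets, those brighter than the array median on 3 or more of 13 arrays. Each gene is given by the probe set with the highest mean over all samples, and for the 9 genes that probe set passed this filter. Mog passed it narrowly, on 1 tumour and 2 GNPC arrays. Of the 26 member probe sets 22 passed, and a pair each of Sox10 and Mobp did not. In all, 3 libraries stood apart. DBS 2 had a log2 3′ to 5′ ratio of control probe sets, a sign of RNA quality, of 2.43, against 1.23 to 1.70 in the other DBS samples. Tumour 2 had a summed level of 6 Purkinje cell markers of 12979.7, against 884 to 4854 in the other tumours. GNPC 3 was the lowest GNPC sample for 8 of the 9 members.

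**Figure D1:**
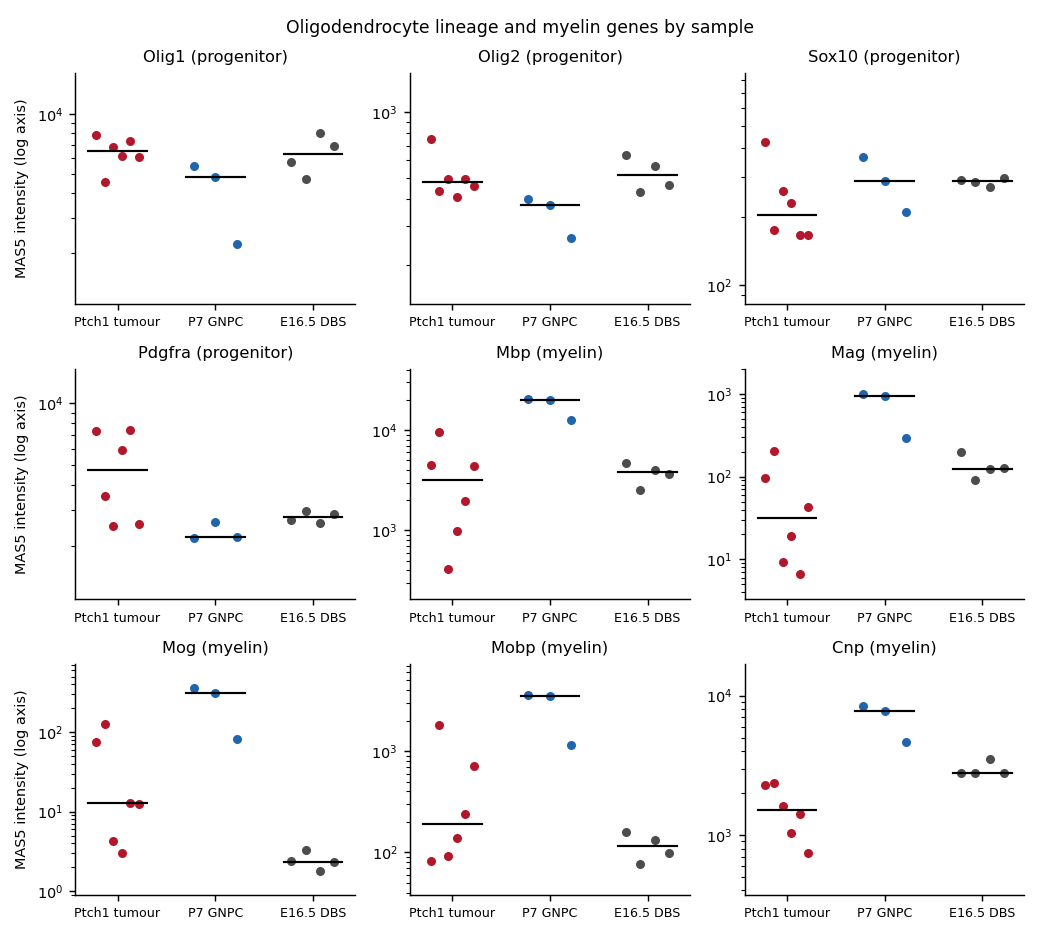
MAS5 intensity of each member in every sample, on a log axis, for tumours, GNPC and DBS; each point is 1 mouse and the black line is the group's median. GNPC 1 and 2 are the highest samples for all 5 myelin genes, while the groups of the 4 progenitor genes lie close together.

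The first question was whether tumours carried progenitor and myelin genes at the level of the GNPC samples, whose purity was not given. All 5 myelin genes were lower in tumours than in GNPC, by 4.56-fold (Cnp) to 11.6-fold (Mag), and none of the 4 progenitor genes was called. Which gene stood at either end depended on the pseudocount, since with 72 in place of 18 the log2 differences were -2.84 for Mbp, -2.77 for Mobp, -2.61 for Mag, -2.15 for Cnp and -1.52 for Mog. The 5 calls among 9 members stand beside a background of 18.3% of all probe sets called, with 12.6% called lower and 5.62% higher in tumours. The median log2 difference was -2.89 for the myelin genes and 0.62 for the progenitor genes, beside -0.03 over all probe sets tested.

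Among the transcription factors, Olig1, a basic helix-loop-helix factor of the whole lineage, had 4554, 6072, 6179, 6867, 7294 and 7892 in the 6 tumours, against 2206, 4814 and 5459 in GNPC. The ranges overlapped, since 1 tumour fell below both higher GNPC samples, and the difference of 0.72 ± 0.25 (SE, adjusted p = 0.0296 by limma) was under 2-fold. Olig2, a related factor that specifies the lineage, had 409.7 at the lowest, 476 at the median and 750.0 at the highest in tumours, against 266, 375 and 401 in GNPC. Every tumour was above every GNPC sample for Olig2, in a narrow gap, with a difference of 0.51 ± 0.19 (adjusted p = 0.0439 by limma), also under 2-fold. Without GNPC 3 the differences were 0.32 for Olig1 (adjusted p = 0.251) and 0.34 for Olig2 (adjusted p = 0.235).

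Sox10, an HMG-box factor that binds the control regions of myelin genes, had 165 at the lowest, 202 at the median and 428 at the highest in tumours, against 209, 286 and 366 in GNPC. The tumours spanned the GNPC range, and the difference of -0.30 had a 95% interval of -0.85 to 0.24. Sox10 is also made by Schwann and neural crest cells. Of the 8 listed markers of those cells 6 were on the array and 3 passed the filter, and their summed level was 562 to 1107 in tumours, 176 to 217 in GNPC and 362 to 432 in DBS. Their part in the Sox10 level was not tested.

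Pdgfra, the receptor for PDGF-A, had 7339, 3498, 2511, 5919, 7402 and 2574 in tumours 1 to 6, against 2192, 2625 and 2202 in GNPC. Tumours 1, 4 and 5 were more than 2-fold above every GNPC sample, while tumours 3 and 6 lay within the GNPC range, and the difference of 0.91 ± 0.31 (adjusted p = 0.0273 by limma) was just under 2-fold. It reached the call without tumour 3 (1.07), without tumour 6 (1.07) and when all arrays were brought to 1 median (1.16). A second, dimmer probe set of Pdgfra had 3700.4, 1069, 564, 1384, 2606 and 903 in the tumours, against 507, 702 and 653 in GNPC and 116, 121, 59.3 and 148 in DBS. It was called higher in all 3 comparisons: by 1.16 between tumours and GNPC (adjusted p = 0.0488), by 3.51 between tumours and DBS (adjusted p = 2.44e-06) and by 2.35 between GNPC and DBS (adjusted p = 0.00146). The remaining one was not called in any. Pdgfra is also made by meningeal and other fibroblasts, and 10 markers of those cells summed to 1851 to 2868 in tumours, 9506 to 11412 in GNPC and 5529 to 8575 in DBS, lowest in the tumours. Their part in the Pdgfra level was not tested.

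**Figure D2:**
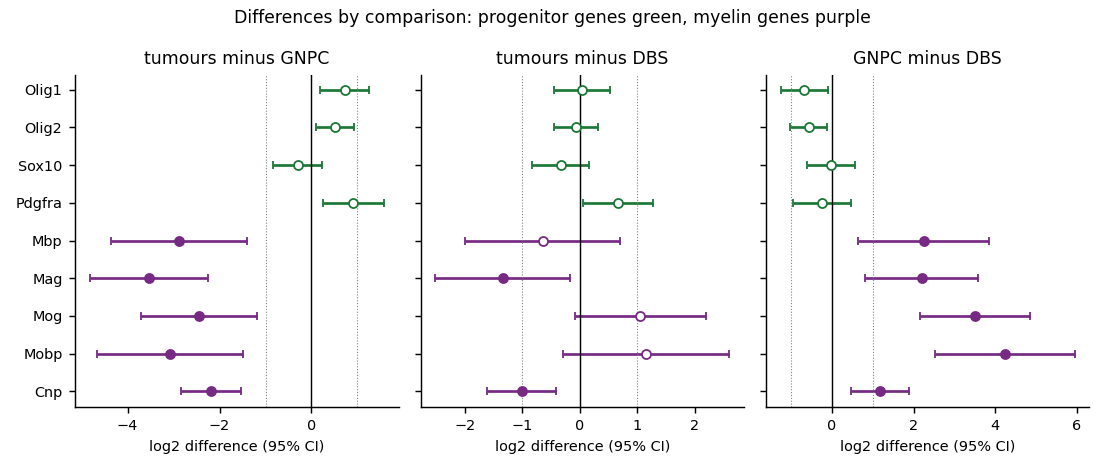
Log2 difference of each member in the 3 comparisons, with 95% intervals; progenitor genes are green, myelin genes purple, and the dotted lines mark 2-fold. Myelin genes lie between -2.19 and -3.53 in tumours minus GNPC and between 1.18 and 4.23 in GNPC minus DBS, while no progenitor gene passes 2-fold.

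Among the myelin genes, Mbp, which holds the cytoplasmic faces of compact myelin together, had 4500.0, 9543, 412, 998, 1949 and 4374 in tumours 1 to 6, against 20463, 19834 and 12743 in GNPC. Every tumour was below every GNPC sample, and the tumours themselves differed 23.1-fold between the highest and the lowest. The difference was -2.89 ± 0.69 (adjusted p = 0.00353 by limma), or 7.41-fold lower. Of the 8 Mbp probe sets 6 were called lower, with log2 differences of -1.89 to -3.64, and the other two were not called in any comparison. The Mbp gene also makes other transcripts, the golli forms, in cells outside the lineage, and which transcripts each probe set reads was not tested.

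Mag, an adhesion molecule of the myelin layer next to the axon, had 95.5, 202, 9.3, 19.3, 6.6 and 43.4 in the tumours, against 1006, 951 and 289 in GNPC. All tumours were below all GNPC samples, 2 of them at under 18, and the difference was -3.53 ± 0.60 (adjusted p = 2.75e-04). Mog, a surface protein of the outermost layer, had 74.5, 126, 4.3, 3, 13 and 12.5 in the tumours, against 357, 315 and 81.7 in GNPC. Tumour 2 exceeded GNPC 3, so the groups overlapped, and the difference was -2.45 ± 0.59 (adjusted p = 0.00353). Mog at such levels was not shown to be above background, since detection calls were not used here.

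Mobp, a small basic protein of compact myelin in the central nervous system, had 82.7, 1816, 92.9, 140.4, 240.1 and 712 in the tumours, against 3599, 3465 and 1156 in GNPC. Tumour 2 again exceeded GNPC 3, with a difference of -3.08 ± 0.74 (adjusted p = 0.00378). Cnp, a cyclic nucleotide phosphodiesterase made early in the lineage and kept in uncompacted myelin, had 2293, 2374, 1606, 1041, 1410.3 and 745 in the tumours, against 8398, 7734 and 4668 in GNPC. Here the groups did not overlap, and the difference was -2.19 ± 0.30 (adjusted p = 5.01e-05). Of the 5 myelin genes 3 did not overlap, beside a background of 40.2% of all probe sets. Each of the 5 calls held in every alternative in which its probe set was tested, including without tumour 2 and without GNPC 3. The brightest probe sets of Mag and Mog were not tested under the 75th percentile filter, nor those of Mbp and Cnp when probe sets ending in _x, _s or _a were left out.

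**Figure D3:**
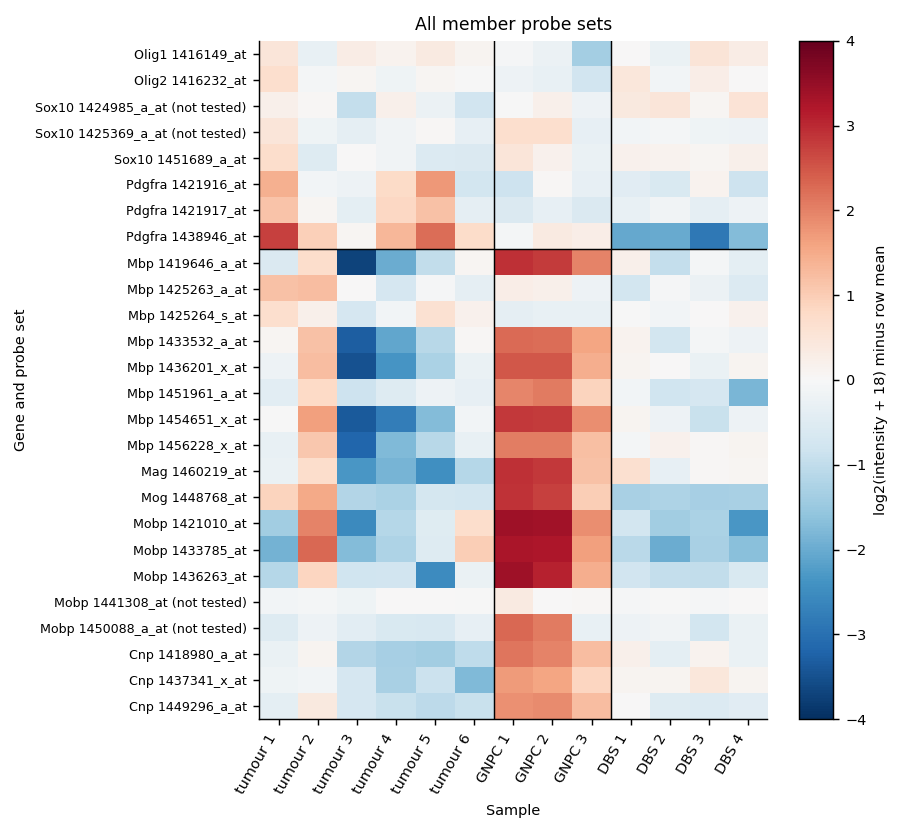
All 26 member probe sets in the 13 samples, as log2(intensity + 18) minus the mean of the row; red is above and blue below that mean. Probe sets of 1 myelin gene mostly follow each other, with 2 of the 8 Mbp probe sets standing out, and the 4 marked ones were not tested.

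The second question set the tumours against the embryonic brainstem. None of the 4 progenitor genes was called in tumours minus DBS, and of the 5 myelin genes Mag and Cnp were lower and the other 3 were not called. The 2 calls among 9 members stand beside a background of 34.2% of all probe sets called. The median log2 difference was -0.01 for progenitor and -0.65 for myelin genes, beside 0.08 over all probe sets.

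In DBS, Olig1 had 5753, 4712, 8052 and 6872, Olig2 had 636, 431, 565 and 465, and both ranges overlapped that of the tumours. Their differences of 0.04 and -0.06 had 95% intervals of -0.45 to 0.52 and -0.44 to 0.32. Sox10 had 290.1, 285, 269 and 297 in DBS, a range that the tumours crossed on both sides, with a difference of -0.33 and an interval of -0.82 to 0.17. Pdgfra had 2672, 2979.7, 2587 and 2865 in DBS, near the lower tumours, and the difference of 0.66 ± 0.28 had an adjusted p of 0.0503 by limma. With the mean of a gene's probe sets it was 1.69 (adjusted p = 5.75e-04), called higher.

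Mbp had 4682, 2550.0, 4013 and 3651 in DBS, inside the tumour range, and its difference of -0.65 had a wide interval of -1.99 to 0.70. Mag had 196, 90.2, 123 and 126 in DBS, above 4 of the 6 tumours, with a difference of -1.34 ± 0.55 (adjusted p = 0.0423). That call ended without any 1 of tumours 3, 4, 5 and 6 or DBS 1, 3 and 4, at adjusted p between 0.0569 and 0.115. Cnp had 2778, 2791, 3527 and 2805 in DBS, above every tumour, with a difference of -1.01 ± 0.28 (adjusted p = 0.00474), 2.02-fold lower. It fell under 2-fold without tumour 4 (-0.92), tumour 6 (-0.82) or DBS 3 (-0.93), and the other 2 Cnp probe sets were not called. Only Cnp did not overlap, beside a background of 52.0%.

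Mog read 2.4, 3.3, 1.8 and 2.3 in DBS, all far under the 18 added before taking logs, and tumours 1 and 2 alone were above 18. Its difference of 1.06 was not called (adjusted p = 0.0938). Mobp had 159, 76.5, 132 and 98.8 in DBS, and tumours 2, 5 and 6 stood above them while tumours 1, 3 and 4 did not. The difference of 1.16 ± 0.68 was not called (adjusted p = 0.145), and was 0.62 without tumour 2.

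Between the normal samples, myelin genes were higher in GNPC, taken after birth, than in DBS, from the embryo, and progenitor genes were not called. That holds for the brightest probe set of each gene. Of the 8 Mbp probe sets 5 were called higher and 3 were not called. A dimmer Pdgfra probe set was called higher, by 2.35 as given above. The 5 myelin calls among 9 members stand beside a background of 17.5% called, with 9.55% called higher and 7.94% lower in GNPC. Age and tissue cannot be told apart in this comparison. From the values above, the difference was 4.23 ± 0.80 for Mobp (18.8-fold, adjusted p = 7.67e-04), 3.50 ± 0.63 for Mog (adjusted p = 5.15e-04) and 2.24 ± 0.75 for Mbp (4.74-fold, adjusted p = 0.0261). The size for Mog depends on the pseudocount, being 4.27 with 9 and 1.98 with 72 in place of 18. Mag differed by 2.19 ± 0.65 (adjusted p = 0.0143) and Cnp by 1.18 ± 0.33 (adjusted p = 0.0101). None of the 5 overlapped, beside a background of 52.6%. The Mbp call ended without GNPC 1 (adjusted p = 0.0743), GNPC 2 (0.0777) or DBS 2 (0.0641) and with robust eBayes (0.0559), and the Mag call without GNPC 1 (0.0634) or GNPC 2 (0.0651). In these fits the tumours share 1 spread with the normal samples. The log2 SD of Mbp was 1.63 in tumours, 0.38 in GNPC and 0.37 in DBS. With only the 2 groups compared in the fit, both calls held (adjusted p by limma 1.60e-05 for Mbp and 9.87e-04 for Mag). Olig2 was lower in GNPC in all samples, with a difference of -0.57 ± 0.21 (adjusted p = 0.0404), which was under 2-fold. Olig1 differed by -0.68, Sox10 by -0.02 and Pdgfra by -0.25.

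Tumours varied among themselves in both roles. In the plot of both roles, each tumour is placed by the median of its 4 progenitor genes and of its 5 myelin genes minus the DBS mean. The myelin median was 1.39 in tumour 2, 0.26 in tumour 6 and -0.37 in tumour 1, and was -0.87 in tumour 3, -1.49 in tumour 4 and -0.89 in tumour 5, against 1.80 to 2.80 in GNPC. Measured against the GNPC mean instead, tumour 2 (-0.86) was above GNPC 3 (-1.06), and the other tumours were at -1.94 or below. The progenitor median ran between -0.34 in tumour 2 and 0.54 in tumour 1, against -0.67 to -0.22 in GNPC. Tumour 2 was the highest tumour for all 5 myelin genes and the lowest for 1 progenitor gene, whereas tumour 1 was the highest for 3 of 4 progenitor genes.

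**Figure D4:**
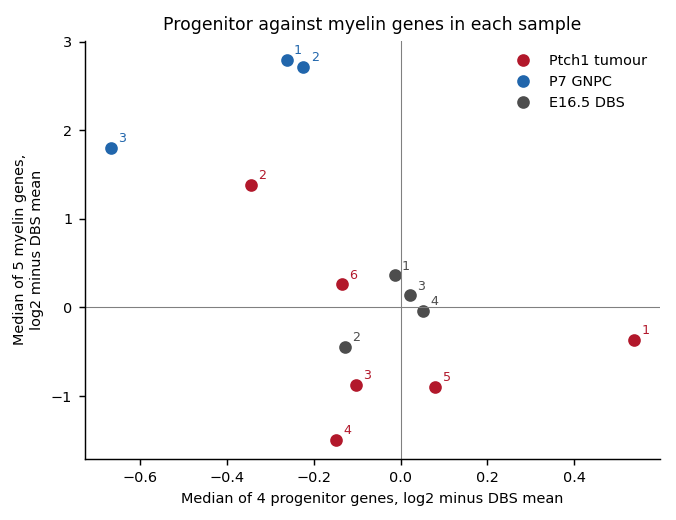
Median log2 level of the 5 myelin genes (vertical) against that of the 4 progenitor genes (horizontal) in each sample, both minus the DBS mean, with samples numbered within groups. GNPC lie at 1.80 to 2.80 on the vertical axis, above tumours at -1.49 to 1.39, while horizontally the groups lie within 0.67 of 0.

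Over the 6 tumours 36 pairs of members were correlated on the log2 scale. The median Pearson r was 0.64 for 10 pairs of myelin genes, 0.53 for 6 pairs of progenitor genes and 0.03 for 20 mixed pairs. No pair passed adjustment (0 of 36, with 4 at an unadjusted exact permutation p under 0.05). The strongest was Mag with Mog, with r = 0.92 (exact permutation p = 0.0167, adjusted 0.375) and Spearman's rho = 0.60 (exact permutation p = 0.242, adjusted 0.973). Without tumours 1 and 2 its r was 0.21, so the relation rested on those tumours.

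Markers of other cells also differed between the groups. The 6 Purkinje markers on the array of 8 listed summed to 884 to 12979.7 in tumours, 41555 to 49906 in GNPC and 9715 to 11469 in DBS. All 6 were called lower in tumours than in GNPC, beside 12.6% called lower and 5.62% higher over all probe sets. In tumours minus DBS 1 of the 6 was higher, 3 were lower and 2 not called, beside 16.0% higher and 18.2% lower over all probe sets. At or under 18 were 2 of the Purkinje markers in tumour 1 and 1 in tumour 3, and 0 in every other sample. Within the tumours, tumour 2 had the highest sum of the Purkinje markers and also of the 5 myelin genes (14062, against 2125 to 7046 in the others). Tumour 1 had the next highest myelin sum (7046) and the lowest Purkinje sum (884). Markers of astrocytes and Bergmann glia summed to 22518 to 46358 in tumours, 68500.3 to 73104 in GNPC and 61236 to 67313 in DBS. Of these 12 markers 8 were lower in tumours than in GNPC and 4 were not called. Against DBS 3 of the 12 were higher in tumours, 5 were lower and 4 not called, beside the same shares over all probe sets. Markers of granule neuron precursors ran the other way, summing to 44668 to 47407 in tumours, 28157 to 31913 in GNPC and 14624.5 to 19909 in DBS. Of these 8 markers 4 were higher in tumours than in GNPC and 0 lower. Against DBS 7 of the 8 were higher in tumours and 1 was not called, beside the same shares. The part of these markers in the myelin differences was not tested. The log2 3′ to 5′ ratio was 1.39 ± 0.0986 in tumours, 1.16 ± 0.0452 in GNPC and 1.75 ± 0.497 in DBS (SD, n = 6, 3 and 4), a difference of 0.23 between tumours and GNPC (exact permutation p = 0.0238, the smallest that 6 against 3 allows; adjusted 0.0714).

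The other genes of the lineage, from lists chosen with earlier results of these data known, were read the same way. Over all probe sets, 5.62% were called higher and 12.6% lower in tumours minus GNPC, and 16.0% and 18.2% in tumours minus DBS. In GNPC minus DBS the shares were 9.55% and 7.94%. Among 7 genes of the committed precursor stage, 5 were lower in tumours than in GNPC and 2 were not called, with a median of -1.55. Bmp4, a secreted signal, had 57.3, 38.4, 41.3, 44.9, 12.5 and 60.2 in the tumours, against 484, 546 and 359 in GNPC and 162, 86.9, 202 and 94.3 in DBS. It was lower in tumours in both comparisons (-3.03 ± 0.31, adjusted p = 3.53e-06, and -1.34 ± 0.28, adjusted p = 5.96e-04), with no overlap in either. Enpp6, a choline phosphodiesterase of newly forming oligodendrocytes, had a mean of 67.4 in tumours and 443 in GNPC, 5.65-fold lower, and 128 in DBS, from which tumours were not called different. Gpr17, a receptor that marks the stage, averaged 479 in tumours, 1387 in GNPC and 1259 in DBS, and was lower in tumours than in either. Tcf7l2, a transcription factor of the same step, was 3.17-fold lower in tumours than in GNPC, with overlapping groups. In GNPC minus DBS 3 of these 7 genes were higher and 4 not called.

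Of 32 further myelin genes listed, 28 were on the array and 21 passed the filter. In tumours minus GNPC 12 were lower, 1 was higher and 8 were not called. The median was -1.06 over the 21 tested and -0.74 over the 28. The summed level of the 28 was 24233 to 29301 in tumours, 21096 to 33516 in GNPC and 20082 to 21594 in DBS. By that sum tumours and GNPC overlapped, with GNPC 3 (21096) below every tumour. Tspan2, a tetraspanin of myelin, had 253, 262, 250.3, 147, 138 and 80.9 in the tumours, against 1131, 1486 and 1766 in GNPC. It was below DBS too, with a difference of -2.25 ± 0.26 (adjusted p = 2.07e-06). Ugt8a, which makes the myelin lipid galactosylceramide, was 5.5-fold lower in tumours than in GNPC, and Fa2h, which hydroxylates its fatty acids, 4.85-fold lower. Myrf, the transcription factor that turns on myelin genes, averaged 38.0 in tumours, 219 in GNPC and 114 in DBS and was lower in tumours than in either. Apod, a lipid-binding protein, was the gene that went the other way, at 1962 ± 751 in tumours, 818 ± 159.5 in GNPC and 521 ± 104 in DBS (SD, n = 6, 3 and 4).

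In tumours minus DBS, 4 of the 21 were higher, 4 were lower and 13 were not called, with 16.0% called higher and 18.2% lower over all probe sets. Ppp1r14a, an inhibitor of myosin phosphatase, was among the higher, at 183 in tumours and 18.8 in DBS. In GNPC minus DBS 10 were higher, none was lower (0) and 11 were not called. Adamts4, a protease, was 4.68-fold higher in GNPC, and Cldn11, a tight junction protein of myelin, 4.39-fold higher.

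Of 13 other progenitor genes that passed the filter, of 16 listed, C1ql1 was higher and Nkx2-2 lower in tumours than in GNPC, and 11 were not called (median -0.34). In tumours minus DBS 2 of the 13 were higher, 5 lower and 6 not called (median -0.81), and in GNPC minus DBS 1 was higher, 4 lower and 8 not called (median -0.49). The shares over all probe sets were 16.0% higher and 18.2% lower in tumours minus DBS, and 9.55% and 7.94% in GNPC minus DBS. C1ql1, a secreted complement-related protein, had 370.1, 234, 315, 851, 189 and 327 in the tumours, against 97.3, 91.5 and 135 in GNPC, with no overlap. Nkx2-2, a homeodomain factor of the lineage, averaged 102 ± 49.3 in tumours and 276 ± 56.6 in GNPC (SD, n = 6 and 3). Cspg4, the NG2 proteoglycan of progenitors, averaged 281 in tumours, 235 in GNPC and 489.7 in DBS, and was called lower only in GNPC minus DBS. Cacng4 and Pcdh15 were lower than in DBS both in tumours, with differences of -1.82 and -1.76, and in GNPC, with -1.24 and -1.42. Sox5, a SoxD factor, was higher than in DBS in both, and Sox8 was not called in any comparison.

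Pdgfa, the ligand of Pdgfra, was among the 2 lineage signals called higher in tumours than in GNPC. It had 1501, 1171, 1137, 1680.0, 1224 and 654 in the tumours, against 280.2, 296 and 197 in GNPC and 769, 847, 511 and 574 in DBS. The lowest tumour was above the highest GNPC sample, and the difference of 2.14 ± 0.25 (adjusted p = 1.21e-05) was 4.41-fold. Against DBS the tumours were 1.76-fold higher, which was not called, and GNPC were 2.50-fold lower. Id4, an inhibitor of basic helix-loop-helix factors, averaged 601 in tumours, 5538 in GNPC and 10991 in DBS, and was lower in tumours than in either. Nrg1, a growth factor on axons, averaged 40.0 in tumours, 158 in GNPC and 375 in DBS, and was called in all 3 comparisons. Of the 18 signals and regulators 2 were higher, 4 lower and 12 not called in tumours minus GNPC, beside 5.62% higher and 12.6% lower over all probe sets.

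**Figure D5:**
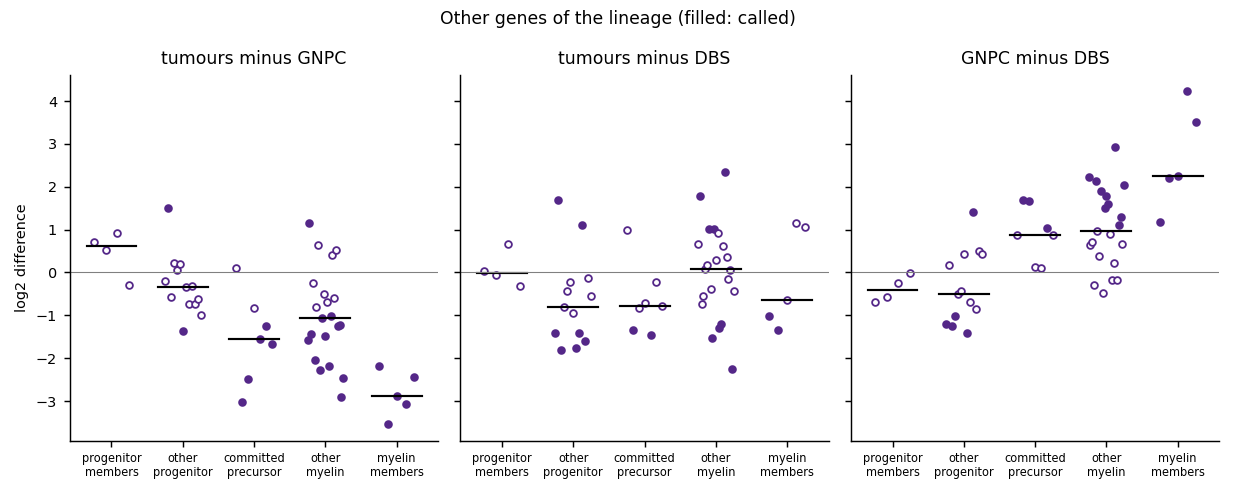
Log2 difference of each tested gene of the lineage lists in the 3 comparisons; filled points passed the call rule, open points did not, and bars are the list's median. In tumours minus GNPC the committed precursor list has a median of -1.55 and the other progenitor list -0.34.

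The genes whose levels followed Mag most closely over the 13 samples, of 12270 genes, were Afap1l2 (r = 0.94), Tns3, Tubb4a and Crhr1 (0.93 each) and Enpp6 (0.92). For Olig2 they were Pxdc1 and 0610009L18Rik (0.87 each), Cybc1 (0.84), Slc35d1 (0.83) and Frg1 (0.83). For Pdgfra they were Ehbp1 and Nt5c3 (0.91 each), Eif2ak3 and Rhebl1 (0.86 each) and Invs (0.85). These values rest on 3 groups that differ in level, and describe likeness over the same 13 arrays.

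Promoter windows are shown for 3 of the myelin genes called lower in tumours than in GNPC and for Olig2, which was not called. RefSeq promoter windows, 250 bases before to 50 bases after a gene's start on GRCm38.p6, were at hand for 6 of the 9 members, and were searched on both strands for the letters ACAAAG or ACAAT, which HMG-box factors such as Sox10 can bind. The letters occur in 42.9% of 32851 windows. They occurred in 5 of the 8 windows of these members, and by gene in 4 of the 6 members. Mobp held 6, Mag (in 2 overlapping windows of its 3), Cnp and Olig2 held 1 each, and Mog and Pdgfra none (0). The Gli letters GACCACCCA, of the pathway that Ptch1 restrains, were in 0.253% of all windows and in 0 of the members'. The capitals mark the Sox letters or their reverse complement. The 3 myelin genes come first and the progenitor gene Olig2 last, at chr9:120149492-120149791 (plus strand), chr7:30914814-30915113 (minus strand), chr11:100574689-100574988 (plus strand) and chr16:91225300-91225599 (plus strand).
Mobp: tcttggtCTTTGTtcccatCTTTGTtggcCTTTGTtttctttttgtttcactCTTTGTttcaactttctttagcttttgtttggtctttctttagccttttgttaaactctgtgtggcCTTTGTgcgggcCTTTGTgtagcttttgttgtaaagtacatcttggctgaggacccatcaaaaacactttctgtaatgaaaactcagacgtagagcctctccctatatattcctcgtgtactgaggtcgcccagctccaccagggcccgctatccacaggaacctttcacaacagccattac
Mag: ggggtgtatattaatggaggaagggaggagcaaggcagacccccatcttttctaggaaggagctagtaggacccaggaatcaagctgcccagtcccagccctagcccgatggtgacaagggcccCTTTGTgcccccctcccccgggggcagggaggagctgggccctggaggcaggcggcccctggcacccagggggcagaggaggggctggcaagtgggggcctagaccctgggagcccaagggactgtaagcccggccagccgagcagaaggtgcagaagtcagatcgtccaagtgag
Cnp: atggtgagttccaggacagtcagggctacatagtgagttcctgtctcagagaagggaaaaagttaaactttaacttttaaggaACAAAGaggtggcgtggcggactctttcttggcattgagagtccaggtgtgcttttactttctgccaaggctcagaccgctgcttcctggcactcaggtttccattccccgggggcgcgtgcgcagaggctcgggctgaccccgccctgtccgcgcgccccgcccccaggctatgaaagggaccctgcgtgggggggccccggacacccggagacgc
Olig2: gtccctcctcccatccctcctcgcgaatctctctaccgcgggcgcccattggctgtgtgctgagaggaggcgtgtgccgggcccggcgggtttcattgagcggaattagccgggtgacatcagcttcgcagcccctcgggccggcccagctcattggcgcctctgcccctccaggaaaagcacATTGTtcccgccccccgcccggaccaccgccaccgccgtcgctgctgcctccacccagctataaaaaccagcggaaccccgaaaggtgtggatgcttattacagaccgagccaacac

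A match is a description of the letters, and Mog, called in the same comparisons as Mobp, had none in its window. Olig2 (chr16:91225550-91228677) and Olig1 (chr16:91269769-91271939) are neighbours, 41091 bases apart with 0 annotated genes between them.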

How the data were processed

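Total RNA was amplified in 2 cycles and hybridised to Affymetrix mouse arrays, 1 per sample, per the labels' protocols. The deposited values are linear MAS5 intensities made by the authors, per the submitters' processing notes, which name MAS5 with no version. Trimmed means are near 499 to 500 on all arrays, a global scaling. The labels used here give no batch, which cannot be told apart from group. Replicates were numbered by accession order.

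Symbols came from the platform annotation, where 34945 probe sets have 1 symbol, 932 several and 9160 none. Members and lists were chosen with earlier results of these data known. Values were set to log2(value + 18), where 18 is the 20th percentile of all values, and fitted with limma 3.58.1 (R 4.3.3) as 3 groups, eBayes with trend, 10 residual and 4.81 prior degrees of freedom. Pairs of members used exact permutations over tumours, correlated in numpy 2.4.6. The 3′ to 5′ ratio used exact permutations between 2 groups in scipy 1.17.1, adjusted over the 3 comparisons. In simulated data of 25894 probe sets, changes of 1.5 on the log2 scale were recovered at 92% in tumours minus GNPC, 89% in tumours minus DBS and 87% in GNPC minus DBS, with 4, 3 and 6 false calls. The simulation gave a probe set the same spread in every group and changed few of them, picked at random. Its rates were not found for members such as Mbp and Mobp, which varied more among tumours than within GNPC or DBS. Named list genes were the 3 called ones with the largest difference per list and comparison, plus Cspg4, Myrf, Pdgfa, Nkx2-2 and Sox8. The number of arrays limits the precision. Alternatives changed the pseudocount, scaling, filter, probe set choice, eBayes and array weights, fitted only the 2 groups compared, and left out each array.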

Additional observations from a re-analysis of the deposited data

Results flagged for a closer look

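In 18 groups of a member's values tested for a single far sample, 2 had one, where chance gives about 1 in 20. Olig2 in tumour 1 was 750.0, against 409.7 to 494 in the other tumours, a gap that was large for the group's range. Cnp in DBS 3 was 3527, against 2778 to 2805 in the other DBS samples.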

How the results depend on the processing

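The direction and call of each of the 5 myelin genes in tumours minus GNPC held in every alternative that tested it; the 75th percentile filter did not test Mag and Mog, and leaving out probe sets ending in _x, _s or _a did not test Mbp and Cnp. With a pseudocount of 72 or quantile normalization the members called in tumours minus DBS were 0 in place of 2, and with all arrays brought to 1 median, no filter, a 75th percentile filter, such probe sets left out, or robust eBayes they were 1; leaving out 1 array gave 0 to 2. The 75th percentile filter and leaving out such probe sets gave 3 in place of 5 in both other comparisons, because fewer probe sets were tested; leaving out 1 array gave 5 to 6 in tumours minus GNPC and 3 to 5 in GNPC minus DBS, where robust eBayes gave 4. Calls over all probe sets (4727 in tumours minus GNPC, 8850 in tumours minus DBS, 4529 in GNPC minus DBS) were 2884, 5345 and 2658 with the 75th percentile filter, 2552, 4457 and 2259 with 1 probe set a gene, 2379, 4187 and 2086 with the mean of a gene's probe sets, and 4292 to 5009, 8703 to 8997 and 4090 to 4741 without 1 array. With all arrays brought to 1 median, the median log2 difference over all probe sets was 0.20, 0.20 and -0.00, and 49.8% of tumours minus GNPC calls were higher, against 30.8%. Differences near 0 changed sign. In tumours minus DBS, Olig1 went to -0.0074 with array weights and ran from -0.10 to 0.16 without 1 array. Olig2 went to 0.062 with 1 median and ran from -0.17 to 0.036 without 1 array. In GNPC minus DBS, Sox10 ran from -0.21 to 0.17 without 1 array, reaching 0.17 without GNPC 3. The cause of these changes was not tested. Pdgfra in GNPC minus DBS went from -0.25 to 0.72 with the mean of its probe sets. That mean takes in 3 probe sets, which differed by -0.25, 0.07 and 2.35. No paired analysis was possible because the replicates were numbered by accession order, which pairs no samples. Dim genes such as Mog lie near the floor, which limits their fold.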

Other observations

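The genes closest to Mobp over the 13 samples were Abhd14b and Npr2 (r = 0.95 each), followed by Pcp2 and Ppp1r17 (0.94 each). Pcp2 and Ppp1r17, picked after their values were seen, are known from Purkinje cells and are among the listed Purkinje markers. Such r values rest on 3 groups that differ in level. Pcp2 averaged 538 in tumours, 6015 in GNPC and 61.8 in DBS, and Mobp averaged 514 in tumours, 2739.6 in GNPC and 116.5 in DBS. The highest Mobp tumour, tumour 2, was also the one with the highest Purkinje marker sum. Any part of Purkinje cells in the Mobp level was not tested. The 10 markers of microglia and macrophages summed to 5150.1 to 14092 in tumours, 5015 to 6519.9 in GNPC and 4996 to 5154.5 in DBS. Of the 9 that passed the filter 5 were higher in tumours than in GNPC and 0 lower. Over all probe sets 5.62% were called higher and 12.6% lower in that comparison.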
